A study of Mus musculus with 38 samples.

Results

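The spleen of B6.C mice was compared between animals given 10 cGy of X-rays and sham-irradiated animals. B6.C is an inbred strain that the labels name without further detail, and its arrays were taken by that strain label: 8 of the 38 arrays of the series, all hybridised with spleen RNA of male mice. The irradiated group had received an acute dose of 10 rad (10 cGy), the control group a sham exposure, and spleens were taken after 3.5 h. The labels give an age of 10 to 14 weeks. Each array carried RNA of an irradiated mouse in 1 dye and of a sham mouse in the other, and arrays 47, 49, 51 and 53 had Cy5 on the irradiated side, arrays 48, 50, 52 and 54 Cy3. As every pair of animals was repeated with dyes exchanged, the 8 arrays hold 4 pairs of mice, but the labels do not say which 2 arrays share a pair, so that p-values over 8 arrays are too small by an unknown amount.

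Spleen is a lymphoid organ in which B cells, T cells and macrophages are packed around blood vessels, and in mice its red pulp also makes red blood cells. Ionising radiation breaks DNA, and the breaks activate p53, a transcription factor whose targets stop the cell cycle, repair DNA or start apoptosis. Lymphocytes are among the cells known to be sensitive to radiation. A dose of this size is in the range usually called low, and the comparison asks which transcripts differ between exposed and unexposed spleens some hours later.

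The measurement is a score for each spot, derived from the signals of both dyes. The sources used here state neither its scale nor its log base, nor which dye is the numerator. Each array was therefore centred on its own median, and scores of arrays with Cy3 on the irradiated side had their sign turned, so that a score keeps 1 direction with respect to irradiation on all arrays. If the deposited values are Cy5 over Cy3, a positive score means more signal in irradiated spleen and a negative score less, and the reverse holds otherwise, so scores are given here as lying on the positive or the negative side. The response of a probe is the mean of its scores in both dye orientations with equal weight. Of 21618 probes, 17422 had a value on at least 2 arrays of each orientation and were tested, 5235 of them with a gene symbol (5233 genes).

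The arrays were uneven. They held values for 13819 probes (array 53) to 19860 probes (array 51), and their medians before centring ran from -2.91 on array 52 to 3.95 on array 49. Over all probes, turned scores of arrays 50 and 54 correlated at r = 0.50 and those of arrays 47 and 49 at r = 0.47, whereas arrays 49 and 53, of the same orientation, had r = -0.45 and arrays 49 and 50 had r = -0.35. Array 50 also correlated below -0.3 with arrays of its own orientation from other strains. Turned scores of arrays 50 and 53 had r = 0.43 with each other. The directions of arrays 49, 50 and 53 are thus not settled. The main results are given over all 8 arrays, without arrays 50 and 53 and with their signs turned, and calls also with the sign of array 49 turned, a reading added after seeing the data.

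**Figure D1:**
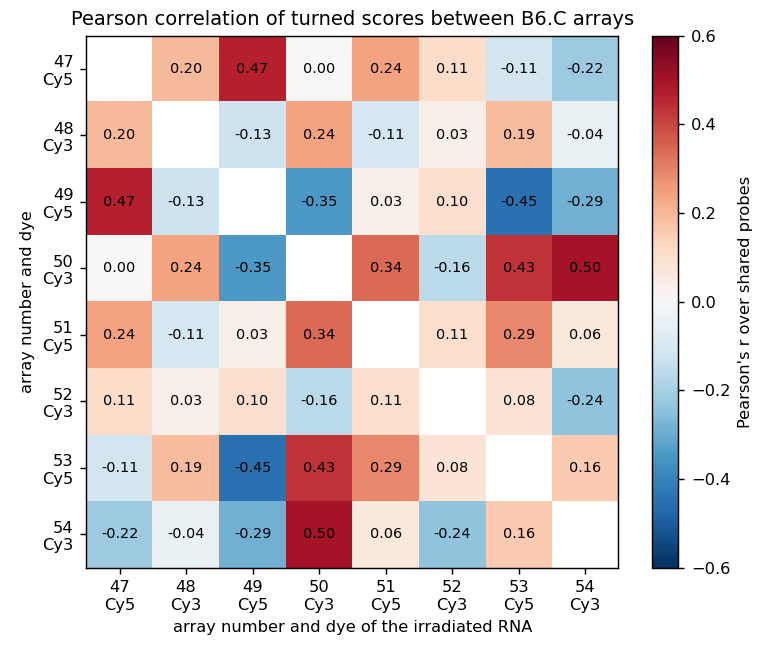
Pearson's r of turned, centred scores between each pair of the 8 B6.C arrays over the probes they share, with array number and dye of the irradiated RNA on both axes. Array 49 stands against arrays 50, 53 and 54 (r = -0.35, -0.45 and -0.29), and arrays 50 and 54 have the highest r (0.50).

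The probes that passed the test in B6.C lay on 1 side. With limma over the 8 arrays, 15 of 17422 probes (0.0861%) had an adjusted p under 0.05, and all 15 were on the negative side. None has a gene symbol here. When consecutive array numbers were taken as swap partners and averaged, 1 probe was left. At an unadjusted p under 0.05 there were 920 probes on the negative side (5.28% of those tested) and 119 on the positive side (0.683%). Over all tested probes the median response was -0.04 and 45.1% were positive. The lower tail of scores was the longer on all 8 arrays when read at the 1st and 99th percentiles. The 1st percentile of turned scores was -3.18 and the 99th 1.42 on array 52, while on array 53 they were -2.53 and 2.46.

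Of the 15 passing probes, 12 carry identifiers from a dense run of GenBank numbers, AF041862 to AF041974, of whose 113 numbers the array holds 99. Probes were named here through RefSeq identifiers only, which left 15102 of 21618 probes without a symbol. These GenBank numbers are among those, so that what they measure is not stated here. The probe with the smallest p, AF041970, had scores of -2.78, -1.79, -1.33, -2.29, -2.72, -1.60, -3.77 and -2.91 on arrays 47 to 54. All were on the negative side in both dye orientations, and the response was -2.40 with an SE of 0.27 (n = 8 arrays, adjusted p = 0.0093). AF041950 had scores of -3.88, -2.31, -3.13, -1.40, -2.70, -1.36, -1.57 and -1.74. Here arrays 47 and 49 were lowest, and the response was -2.26 with an SE of 0.26 (adjusted p = 0.0093). The responses of all 15 probes lay between -2.40 and -1.37, and all 15 were negative on all 8 arrays. They did not share a pattern over arrays: AF041970 was lowest on array 53, where AF041950 lay near its highest value.

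**Figure D2:**
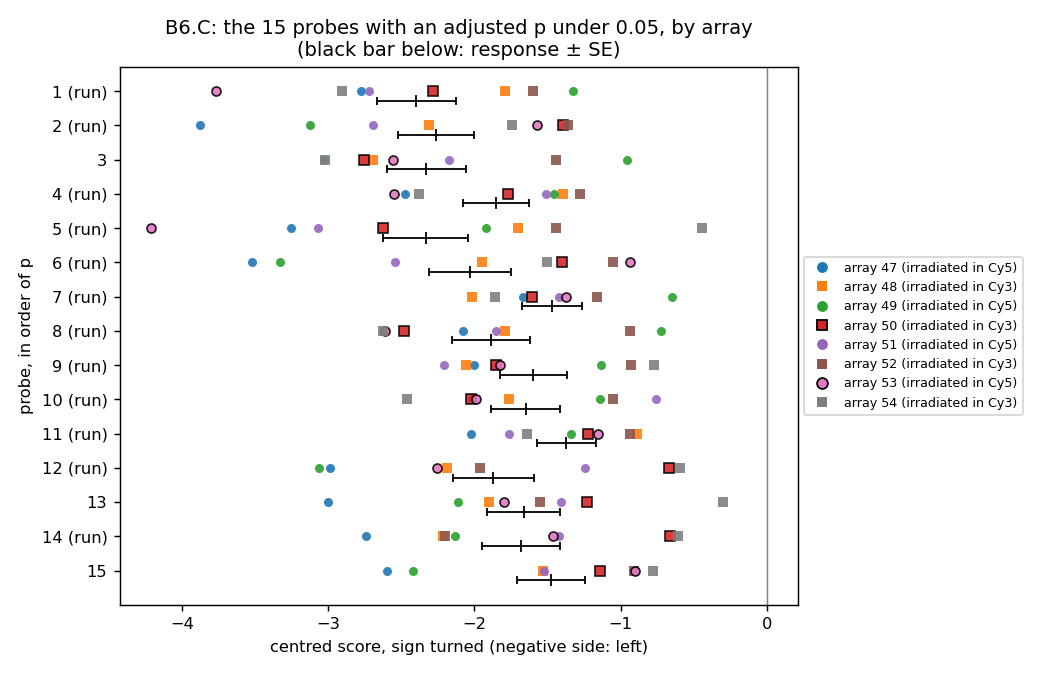
Centred, turned scores (x axis) of the 15 probes with an adjusted p under 0.05, ordered by p (y axis), with a point for each array, black outlines for arrays 50 and 53, and a bar for the response with its SE. "Run" marks the 12 probes with identifiers from the run of GenBank numbers. Every point lies on the negative side, the highest at -0.30.

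The run was noticed through its members that passed, all on the negative side. Its values here and by array below include those members, so they are a description without a test. Of its 99 probes, 98 were tested in B6.C and 84 of these (85.7%) were on the negative side, against 54.7% of the other tested probes. Unadjusted p was under 0.05 for 51 on the negative side and 1 on the positive side. The responses ran from -2.57 to 0.63 with a median of -0.61, against -0.04 in the other probes. When probes were grouped by identifier without its last 2 digits, 281 groups had 20 or more tested probes, and their medians ran from -0.74 to 0.20. The lowest median (-0.74) and the next (-0.40) belonged to the groups that hold this run, and the lowest of the others was -0.22.

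On the single arrays the median of the run was negative on all 8, from -0.91 on array 54 to -0.40 on array 52. The share of its probes on the negative side was 75.3% to 83.5% on 7 arrays and 55.6% on array 53. Without arrays 50 and 53 the median response was -0.68, with 86 of 97 probes negative. With the signs of these arrays turned it was -0.46, with 83 negative. Without centring the median response of the run was 0.34, against 0.92 over all tested probes, so that its negative side is relative to the array medians. In the other 5 strains the median of the run was less uniform. It was negative on 7 of 8 BalbxJ arrays, where it ran from -1.08 to 0.30, on 3 of 4 DBA/2J arrays, on 3 of 4 BI6Jx arrays, on 4 of 8 A/J arrays and on 2 of 6 C3H arrays. The lowest single array of the series was thus a BalbxJ array.

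**Figure D3:**
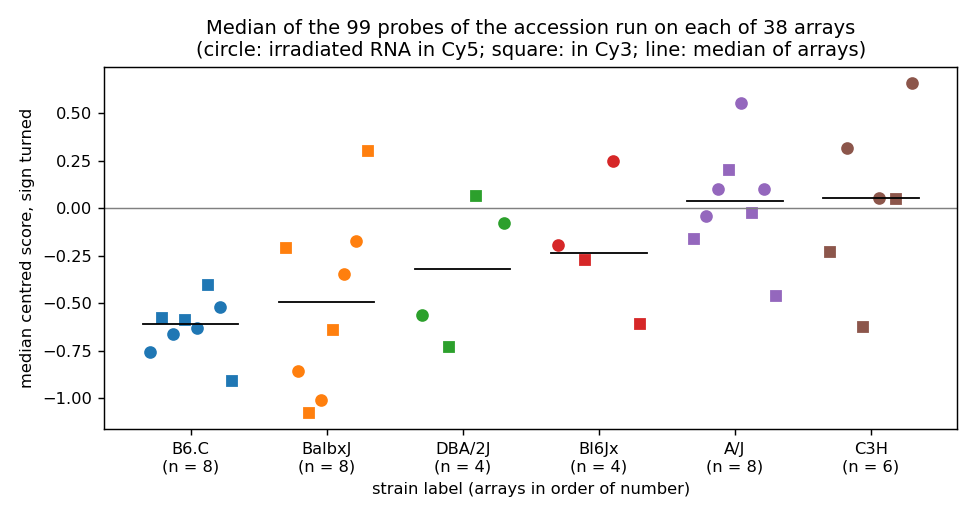
Median centred, turned score of the 99 probes with identifiers from the run of GenBank numbers (y axis) on each of the 38 arrays, by strain label (x axis); circles have the irradiated RNA in Cy5, squares in Cy3, and lines are medians of arrays. The 8 B6.C arrays lie between -0.91 and -0.40, and BalbxJ arrays between -1.08 and 0.30.

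Without arrays 50 and 53, limma called 2 of 17070 probes (0.0117%), both on the negative side. They were AF041950, with a response of -2.52 and an SE of 0.24, and a further member of the run, both at an adjusted p of 0.036. All 15 probes called with 8 arrays kept a negative response on the 6 arrays, as they had to, being negative on all 8. With the signs of arrays 50 and 53 turned no probe passed with limma, 701 had an unadjusted p under 0.05 and the smallest adjusted p was 0.92. With the sign of array 49 turned instead, none passed either (2165 unadjusted, smallest adjusted p 0.088). Leaving out array 50 alone also left none, with 632 at an unadjusted p under 0.05 and a smallest adjusted p of 0.061. Leaving out array 47, 48 or 51 left 3, 4 and 6 calls and leaving out array 49 gave 35, so that the number of calls rests on single arrays.

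Probes were also counted by whether the orientations overlapped, without a test. Among 14884 probes with values on at least 3 arrays of each orientation, the 2 orientations did not overlap on the negative side for 372 (2.5%) and on the positive side for 306 (2.06%). Members of the run made up 39 of the 372, with 95 of its members among the probes counted. With the signs of arrays 50 and 53 turned the counts were 355 and 85, and 9 of the 355 belonged to the run. On the 6 other arrays, with 3 of each orientation for 12840 probes, they were 767 and 235, with 56 of the run among the 767. Both sides together made 7.80% there and 4.56% over 8 arrays. With fewer arrays of each orientation values separate more often by chance, so these shares cannot be compared. With the sign of array 49 turned the counts over 8 arrays were 771 and 610, with 11 of the run among the 771. Without centring they were 1 and 234, so that the sides of this count rest on the centring.

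No gene with a symbol passed the test, and the genes below are those with the smallest p on each side among genes with values on at least 3 arrays of each orientation. The 12 on the negative side had responses of -2.41 to -0.97 and adjusted p from 0.066 to 0.13. Casp6 encodes an executioner caspase that cuts nuclear lamins in apoptosis. Its scores on arrays 47 to 54 were -2.60, -2.02, 0.23, -1.13, -2.45, -1.82, -2.88 and -2.41, negative on all arrays but array 49, and its response was -1.88 with an SE of 0.33 (adjusted p = 0.066). Rassf7, of the family of proteins with a Ras-association domain, had scores of -3.59, -3.15, -2.61, -1.78, -1.18, -1.16, -0.81 and -0.99. All were negative, those of arrays 47 to 50 being lower than those of arrays 51 to 54, and the response was -1.91 with an SE of 0.34 (adjusted p = 0.071).

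The growth factor gene Igf2, which is expressed from the paternal allele, showed the same order of arrays with a wider gap. Its scores were -3.67, -3.71, -3.94 and -3.05 on arrays 47 to 50 and -1.01, -0.07 and -0.95 on arrays 51, 52 and 54, and it had no value on array 53. The response was -2.41 with an SE of 0.48 (adjusted p = 0.12). Tcp1, a subunit of the chaperonin that folds actin and tubulin, had -3.60, -3.55, -4.29 and -3.01 on arrays 47 to 50, but -1.25, 0.44, -0.11 and -0.13 on the others (response -1.94, adjusted p = 0.33). Birc5, or survivin, an inhibitor of apoptosis that also acts in chromosome segregation, had -3.05, -3.08, -2.97 and -2.47 against -0.07, 1.14, 0.13 and 0.43 (response -1.24, adjusted p = 0.79). In all 3 genes every score on arrays 47 to 50 was below every score on arrays 51 to 54.

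Other genes on the negative side did not show this order of arrays. Sprr1a, a precursor of the cornified envelope of epithelia, ranged from -1.46 to -0.36 with a median of -1.14 over 8 arrays, and its response was -1.04 with an SE of 0.21. Atp5l, a subunit of the mitochondrial ATP synthase, ranged from -1.45 to -0.24 and had a response of -0.99. Plaat1, a phospholipase and acyltransferase, had a response of -1.19 and a range of -1.71 to -0.28. Tktl1, a transketolase-like protein, had -1.33, with all 7 scores negative. The inhibin subunit gene Inha (-1.68), Dtd1, which removes D-amino acids from tRNA (-1.55), and the cell cycle regulator Rgcc (-0.97) were negative on all 8 arrays. The serotonin receptor gene Htr6 (-1.52) and the signal peptidase subunit gene Sec11a (-1.74) were positive on array 49 only, at 0.03 and 0.08.

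The genes on the positive side had smaller responses, from 0.46 to 0.83, and adjusted p from 0.70 to 0.83. Dnaja1, a co-chaperone of Hsp70, had scores of 0.46, 0.21, 0.93, 0.82, 0.28, 1.81 and 0.31 on the 7 arrays with a value and a response of 0.64 with an SE of 0.23. Cyb5a, the electron carrier cytochrome b5, was also positive on all 7 arrays with a value (0.16 to 1.59, response 0.64). Nck1, an adaptor of tyrosine kinase signalling, was positive on 7 of 7 (response 0.50). Gad2, which makes GABA, and Fbn2, a microfibril protein, were positive on 8 of 8, but for both array 53 was far above the rest, at 1.81 and 1.39. Lyz2, the lysozyme of macrophages and neutrophils, was between 0.85 and 0.95 on arrays 50 to 54 but -0.68 on array 49 and near 0 on array 47 (response 0.56). Acp5, the tartrate-resistant acid phosphatase, was negative on array 49 alone (-0.70, response 0.50). Ms4a6b, Ly6c1, Tmod3, A930018P22Rik and Reg3b had responses of 0.50, 0.58, 0.76, 0.76 and 0.83 with 1 or 2 negative arrays each. With the signs of arrays 50 and 53 turned, 3 of these 24 genes changed side, Gad2, Tmod3 and Reg3b.

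**Figure D4:**
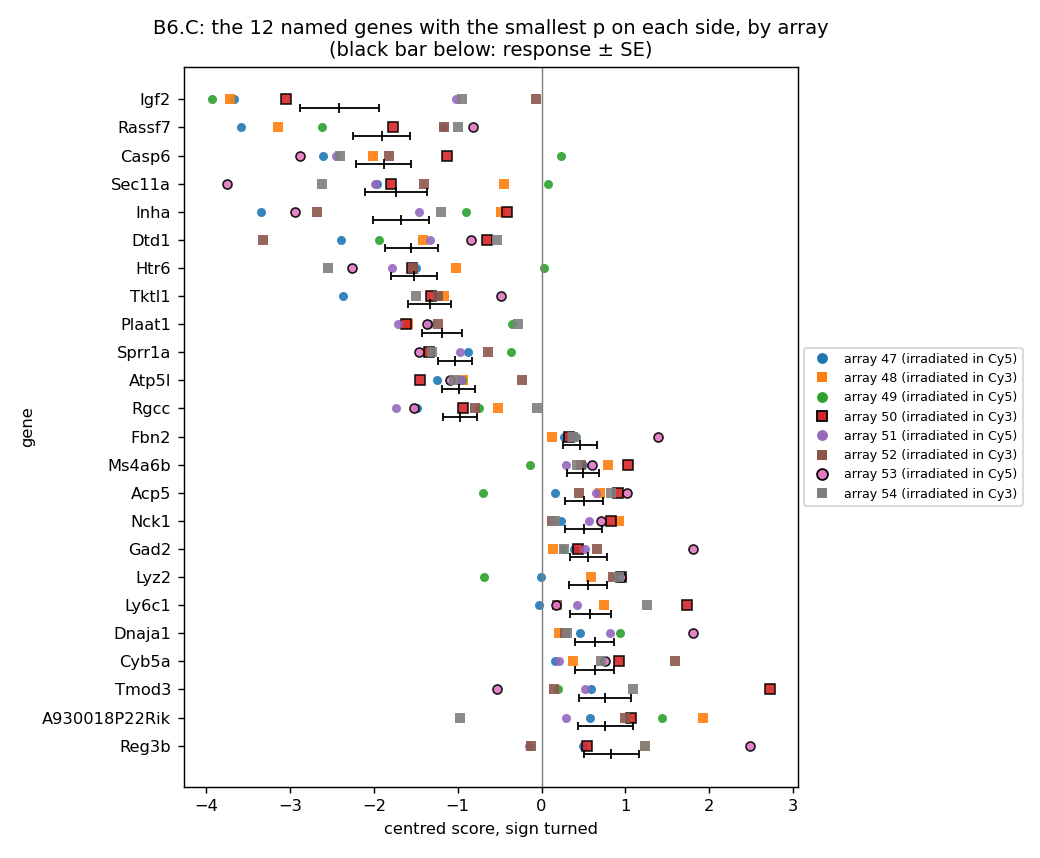
Centred, turned scores (x axis) of the 12 genes with the smallest p on each side (y axis) among those with values on at least 3 arrays of each orientation, with a point for each of the 8 arrays and a bar for the response with its SE. None passed after adjustment. Igf2 and Rassf7 are lowest on arrays 47 to 50, and array 49 is the highest for Casp6, Htr6 and Sec11a.

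On the 6 arrays without 50 and 53 the smallest p on the negative side belonged to Phb2, a prohibitin of the inner mitochondrial membrane. Its response was -2.02 there and -1.57 with all arrays, with 1.05 on array 53. Trim21, the cytosolic Fc receptor and ubiquitin ligase, had -1.09 on 6 arrays and -0.93 on 8, and was negative on all 8. Frmd8 had -0.996 and -0.59. On the positive side Rgs1, which dampens chemokine receptor signalling in lymphocytes, and Lcp2, the adaptor SLP-76 of T cell receptor signalling, had 0.55 and 0.49. Both had values on these 6 arrays only. Zcchc10, Ltk and Npm3 had 0.54, 0.63 and 0.55 on 6 arrays but 0.16, 0.12 and 0.02 on 8, each with its 2 lowest values on arrays 50 and 53. No gene with a symbol passed on the 6 arrays.

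Compared with the mean of the other 5 strains over all 38 arrays, 6 of 14216 probes (0.0422%) differed in B6.C at an adjusted p under 0.05, all on the negative side. Unadjusted p was under 0.05 for 724 on the negative side (5.09%) and 205 on the positive side (1.44%), around a median difference of -0.16 over all probes. The only one with a symbol was Rassf7, at -1.91 in B6.C and 0.16 in the mean of the other strains, a difference of -2.07 with an SE of 0.39 (adjusted p = 0.036). Of the run of GenBank numbers 3 passed, and 79 of the 91 tested members had a difference on the negative side, with a median of -0.54. Over all probes 35.9% had a positive difference. The run was noticed through its negative B6.C scores, which enter this difference, so its side here is not a separate result. AF041970 was among the members that passed, with -0.24 in the other strains and a difference of -2.16 (SE 0.38, adjusted p = 0.018). For the 15 probes called in B6.C the other strains' mean lay between -0.44 and 0.18. When arrays 50 and 53 were left out or their signs turned, no probe differed with limma, with 683 and 1156 at an unadjusted p under 0.05.

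The genes with the next smallest p for this difference did not pass. On the negative side, the differences were -1.28 for Dtd1, -1.64 for the zinc finger gene Zfp92, -0.91 for Sprr1a and -1.13 for Lsm3, a component of the spliceosome. Zfp92 had a response of only -0.39 in B6.C and a mean of 1.25 in the other strains. On the positive side Ppargc1a, the coactivator PGC-1α of mitochondrial biogenesis, had 0.67 in B6.C, with all 5 scores positive, and -0.10 elsewhere. Naca, Rps12, Ecm1 and Rps24 had differences of 0.61, 0.68, 0.71 and 0.80. For Ecm1, a secreted matrix protein, 1 score of 2.82 on array 53 stood against a range of -0.36 to 0.33 on the others.

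The gene lists were read by their counts and medians beside those of all 5233 genes, of which 46.0% were positive, with a median response of -0.03. Their sides are relative to the median of each array. Without centring, 97.1% of all tested probes were positive, with a median response of 0.92. No listed gene passed the test. Of 18 tested p53 targets, 7 were positive and the median was -0.11, with none at an unadjusted p under 0.05 on either side. Bax, the pore-forming inducer of apoptosis, had scores from -2.01 to 0.57 (response -0.56), and was positive on arrays 47 and 49 and negative on the other 6. Xpc and Ddb2, which recognise damaged DNA in nucleotide excision repair, had -0.46 and 0.52, the latter on 5 arrays, and Sfn, the cell cycle inhibitor 14-3-3σ, 0.40 with 7 of 8 scores positive. In DNA repair and damage signalling 15 of 34 were positive (median -0.07). Brca2, which acts in the repair of breaks by homologous recombination, had a response of -0.79 over 7 arrays, and the checkpoint kinase gene Chek2 -0.56 with 3 positive scores. In apoptosis 15 of 38 were positive (median -0.06), and Casp6 and Birc5 were at an unadjusted p under 0.05 on the negative side (5.26%, near the 4.76% of all genes). Pdcd4, an inhibitor of translation, had -0.48, with 7 of 8 scores negative.

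Stress lists leaned to either side over the 8 arrays. Immediate early genes had 7 of 21 positive and a median of -0.19, with 3 at an unadjusted p under 0.05 on the negative side (14.3%, against 4.76% of all genes). These were Ier2 (-1.001) and Atf3 (-0.59), which growth factors or stress induce quickly, and Srf (-0.72), the transcription factor through which many such genes are induced. Ier2 had -2.45, -1.78, -1.67 and -1.54 on arrays 47 to 50 and 1.42 on array 53. The median of the immediate early list was -0.19 without arrays 50 and 53, against -0.07 over all genes. With the signs of these arrays turned, 8 were positive and the median was -0.09, near the -0.08 of all genes. Heat shock proteins and chaperones had 20 of 28 positive and a median of 0.12. They included Hspa5, the chaperone BiP of the endoplasmic reticulum (0.46), and Dnaja1, and on the other side Tcp1 and Hspa4 (-0.57). Without arrays 50 and 53, 16 were positive and the median was 0.03, and with their signs turned 13 and -0.03. In the antioxidant list 13 of 34 were positive. Nfe2l2, the regulator Nrf2 of that response, had a response of 0.85 with all 6 scores positive, whereas Gclm, needed for glutathione synthesis, and Gstp1 had -0.59 and -0.74. The interferon list had 13 of 26 positive, and array 53 stood alone at -0.77. Irf9, part of the complex activated by type I interferon, was positive on 8 of 8 (0.46), and the antiviral gene Rsad2 had -0.95 with -2.47 on array 48 and 0.90 on array 52.

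Cytokines and chemokines had 21 of 42 positive and a median of 0.00, with Il9 lowest in p (-0.79) and a score of 1.90 on array 53. TGF-beta signalling and matrix genes had 16 of 32 positive. Smad6, an inhibitory Smad, had -0.85 with all 6 scores negative, between -1.07 and -0.36, and Smad3, which carries the signal, had -0.89 with a score of 1.55 on array 49. Genes that the paper discusses were looked up singly. Of 9 such genes, 4 had enough values in B6.C, and an exact permutation test of the orientation labels was run on each, two-sided, with 0.029 as the smallest p that 4 against 4 arrays allow. Tgfbi, a matrix protein induced by TGF-beta, had a response of 0.23 with 6 of 8 scores positive (exact p = 0.086, adjusted over 4 tests 0.34). Ltbp2, Smcp and Notch3 had 0.18, -0.13 and 0.01 (exact p = 0.60, 0.66 and 0.94, adjusted 0.88, 0.88 and 0.94). Glucocorticoid-responsive and circadian genes had 7 of 14 positive, with Arntl, the clock protein BMAL1, at -0.61 and Tsc22d3, a glucocorticoid target, at 0.49.

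Genes of proliferation and metabolism differed by list. In cell cycle and DNA replication 19 of 38 were positive, and without arrays 50 and 53 only 10, with a median of -0.15. Cdkn2c, an inhibitor of Cdk4 and Cdk6, had -0.73. In ribosomal proteins 31 of 51 were positive with a median of 0.09, but the median on array 49 was -0.81 and on the other 7 arrays between 0.08 and 0.64. Without arrays 50 and 53 the median response of this list was 0.01, and with their signs turned -0.07. In mitochondrial respiration 12 of 31 were positive with a median of -0.15. The median was negative on all 8 arrays, at -0.55 on array 53 and between -0.19 and -0.04 on the others. The median response was -0.13 without arrays 50 and 53, -0.12 with their signs turned and -0.05 with that of array 49 turned. Over all genes these medians were -0.07, -0.08 and -0.01. The 5 respiration genes at an unadjusted p under 0.05 were all on the negative side (16.1% of the list, against 4.76% of all genes). Besides Atp5l the smallest p belonged to Cox6b1 and Cox5b, subunits of cytochrome c oxidase (-1.32 and -0.48), and to Atp5g2, of the ATP synthase (-1.14). Cox6b1 was positive on array 49 alone (0.45).

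**Figure D5:**
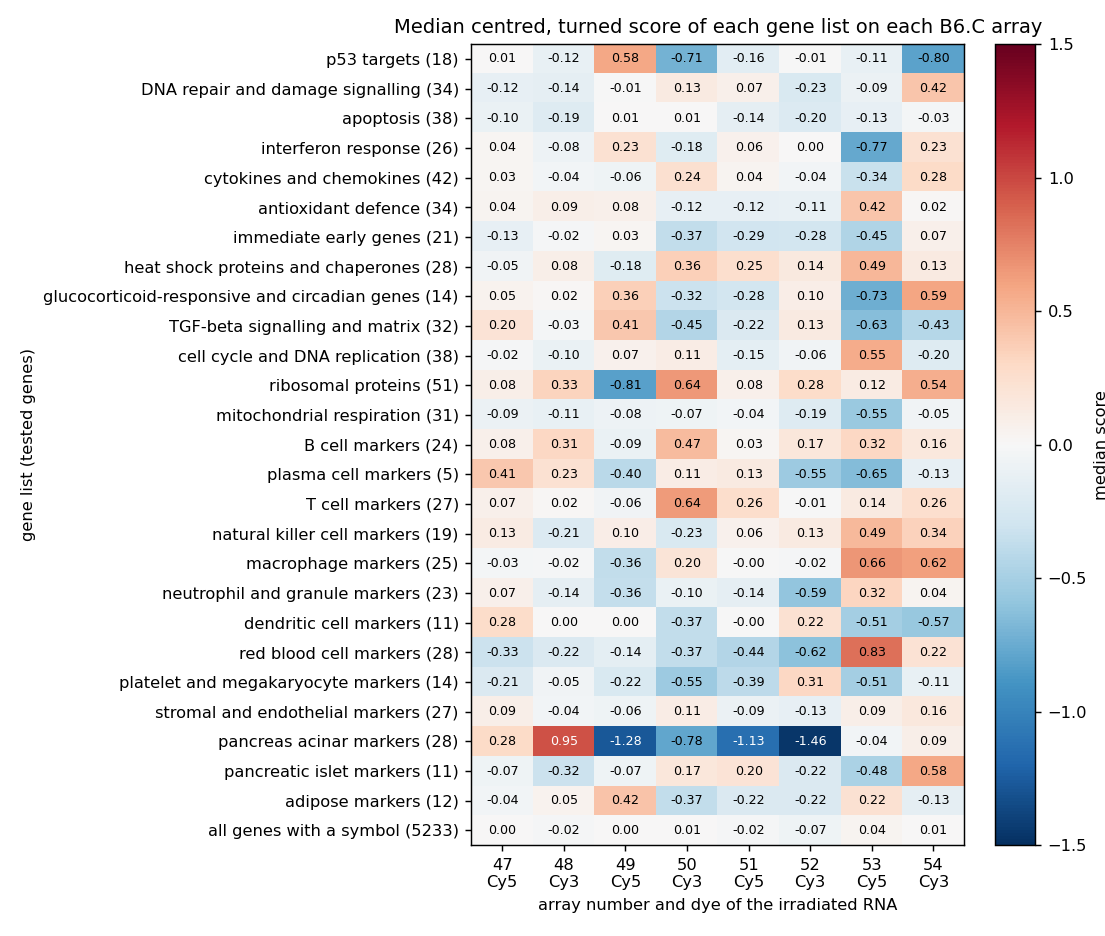
Median centred, turned score of each gene list (y axis, tested genes in parentheses) on each B6.C array (x axis, with the dye of the irradiated RNA). Pancreas acinar markers span -1.46 to 0.95. Mitochondrial respiration is negative on all 8 arrays, at -0.55 on array 53 and between -0.19 and -0.04 on the others.

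Of the cells of the spleen, markers of B, T, natural killer and macrophage cells were mostly on the positive side over 8 arrays, and those of the other 6 lists were not. In bulk RNA fewer cells of a type and less RNA per cell cannot be told apart. Of the defining markers on the array, the B cell genes Ms4a1, Cd79a and Cd79b and the T cell genes Cd3e and Cd4 had values on all 8 arrays, as the red cell genes Hba-a1 and Epb42 and the neutrophil genes S100a9 and Ltf did. A score from both dyes does not show how strongly a gene is expressed, so that the tissue could not be checked by levels. B cell markers had 17 of 24 positive with a median of 0.12. The antigen receptor subunits Cd79a and Cd79b had 0.39 and 0.34, Bcl6, the germinal centre regulator, 0.73 with all 6 scores positive, and Fcer2a, the IgE receptor CD23, -0.81. T cell markers had 21 of 27 positive with a median of 0.15 and 2 at an unadjusted p under 0.05 on the positive side, Cd40lg and Ly6c1 (7.41%, against 0.459% of all genes). Cd40lg, the ligand with which T cells help B cells, had 1.08, 2.62, 0.58, 0.59 and 1.89 on the 5 arrays with a value and a response of 1.27 with an SE of 0.35 (adjusted p = 0.44). Without arrays 50 and 53 the median was 0.03 in both lists, and with their signs turned it was -0.02 for B cells and -0.0050 for T cells.

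Natural killer cell markers had 13 of 19 positive with a median of 0.09, which was -0.05 with the signs of arrays 50 and 53 turned. Macrophage markers had 17 of 25 positive (median 0.12), but on arrays 53 and 54 the median was 0.66 and 0.62 and on the others -0.36 to 0.20, and the median response was -0.02 without arrays 50 and 53 and -0.03 with their signs turned. Siglec1, the sialoadhesin of marginal metallophilic macrophages, had -1.11 with 7 of 8 scores on the negative side (adjusted p = 0.35). Neutrophil and granule markers had 9 of 23 positive with a median of -0.12. The neutrophil genes S100a9 and Ltf had responses of 0.44 and 0.16, and Lyz2, also on this list, 0.56. Ncf4, a subunit of the phagocyte NADPH oxidase, was negative on all 8 arrays, from -2.06 to -0.07 (response -1.004, adjusted p = 0.24). Dendritic cell and plasma cell markers had 3 of 11 and 1 of 5 positive, with medians of -0.12 and -0.18. With the signs of arrays 50 and 53 turned these medians were 0.03 and 0.19. Sdc1, syndecan-1 of plasma cells, was at -1.11 over 4 arrays, and Prdm1 of the same list at 0.49 with all 5 scores positive.

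Red blood cell markers had 9 of 28 positive with a median of -0.10, and 4 were at an unadjusted p under 0.05, all on the negative side (14.3%, against 4.76% of all genes). These were Ermap (-0.93) and Slc4a1, the band 3 anion exchanger (-1.15), Add1 of the membrane skeleton (-1.07) and Fech, the last enzyme of haem synthesis (-0.56). Slc4a1 scores were negative on 7 arrays and 0.75 on array 49. The median of the list was negative on arrays 47 to 52, from -0.62 to -0.14, but 0.83 and 0.22 on arrays 53 and 54. Without arrays 50 and 53 it was -0.23, with 4 of 25 positive, and with their signs turned -0.29. Over all genes these medians were -0.07 and -0.08. With the sign of array 49 turned the list median was -0.04, with 13 of 28 positive, against -0.01 over all genes. The list thus stayed lower than all genes without arrays 50 and 53 or with their signs turned, but lay near them with array 49 turned. The haemoglobin gene Hba-a1 had a response of -0.82. Platelet markers had 5 of 14 positive (median -0.17, and 0.02 with the signs of arrays 50 and 53 turned), and stromal and endothelial markers 12 of 27.

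Pancreatic and adipose genes, from tissues that lie against the spleen, also had values. Of 30 acinar genes on the array 28 were tested, 19 had values on all 8 arrays and 1 on none. They had 7 of 28 positive and the lowest median of the 26 lists, -0.50, with 5 at an unadjusted p under 0.05 on the negative side (17.9%) and 1, Reg3b, on the positive side, against 4.76% and 0.459% of all genes. The median by array was 0.28 and 0.95 on arrays 47 and 48, -1.28 and -0.78 on arrays 49 and 50, -1.13 and -1.46 on arrays 51 and 52, and -0.04 and 0.09 on arrays 53 and 54. Arrays 49 to 52 were thus low and the other 4 were not. With the signs of arrays 50 and 53 turned the median response was -0.22, and with the sign of array 49 turned it was -0.08. Ctrb1 and Prss2, which encode chymotrypsinogen and a trypsinogen, had responses of -1.23 and -1.16, and Try4 and the granule protein gene Gp2 -1.18 and -1.002. The part of these genes in the other results was not tested. Islet markers had 6 of 11 positive and adipose markers 5 of 12, with Car3 at -0.79.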

How the data were processed

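Spleen RNA of irradiated and sham-irradiated mice was hybridised to 2-colour oligonucleotide arrays. Per the paper, the authors removed poor or dim spots, subtracted local background and normalized by Lowess. The deposited table holds a signed score per spot and array, and the sources used here leave its scale, log base, centring and direction unstated, as they do whether Lowess had been applied to it. The design foresaw log ratios, and the scores were used unchanged. Here 1235 control spots were left out, spots of a probe were averaged, and 6516 of 21618 probes were named through RefSeq accessions. Each array was centred on its median and turned by dye. limma 3.58.1 in R 4.3.3 (lmFit, eBayes, statmod 1.5.0 for blocks) fitted response and dye over 8 arrays, and strain responses over 38, with Benjamini-Hochberg adjustment and a threshold of 0.05. For each symbol the probe with values on most arrays was kept. Named genes are the 12 on each side with the smallest p over 8 arrays, 6 over the 6 arrays and 5 for the difference between strains (the first 2 with values on at least 3 arrays of each orientation), up to 4 per list, and genes the paper discusses. Members, tests and the 26 lists were chosen with earlier results of these data known. Scripts were tested on simulated data. Depth does not apply to array scores, and the number of arrays limits the precision. Alternatives are given with the closing section.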

Additional observations from a re-analysis of the deposited data

Results flagged for a closer look

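Of 69 single genes and list medians examined over the B6.C arrays, 12 had an array standing apart from the rest by more than Dixon's 95% critical value, which chance gives in about 1 group of 20. The 69 share the same 8 arrays, and scores of array 53 spread most (SD 1.27, others 0.62 to 1.05), so that this rate may not hold here. Array 53 stood apart in 7 of the 12. It held the highest score for Gad2 (1.81, others 0.14 to 0.66), Fbn2 (1.39, others 0.12 to 0.41) and Ecm1 (2.82, others -0.36 to 0.33). It also held the lowest median of the interferon response list (-0.77, others -0.18 to 0.23) and of mitochondrial respiration (-0.55, others -0.19 to -0.04), and the highest of antioxidant defence (0.42, others -0.12 to 0.09) and of cell cycle and DNA replication (0.55, others -0.20 to 0.11). Array 49 held the lowest median of ribosomal proteins (-0.81, others 0.08 to 0.64) and the lowest score of Rps12 (-1.27, others 0.14 to 1.08). Array 50 held the highest median of T cell markers (0.64, others -0.06 to 0.26). Array 52 held the highest score of Atp5l (-0.24, others -1.45 to -0.94), and array 54 the lowest of Notch3 (-0.74, others -0.10 to 0.36).

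The B6.C response differed from the mean of the other 5 strains for 6 probes by limma's test of the difference, Rassf7 among them (-2.07).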

How the results depend on the processing

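The 15 calls over 8 arrays moved with the processing, and the calls over the 8 arrays lay on the negative side except where stated. Values as deposited, without centring, left 0 (unadjusted p under 0.05 for 148, with 142 positive). Scaling each array by its spread left 0 (1113 unadjusted), turning the signs of arrays 50 and 53 left 0 (701), and turning that of array 49, chosen after seeing the data, left 0 (2165). Leaving these arrays out left 2. Requiring values on all 8 arrays gave 37 and fitting all 38 arrays together gave 49, with 1 on the positive side. Without a dye term there were 31. The labels do not name swap partners. With consecutive array numbers taken as partners there was 1 call when they were averaged and 37 with them as a random replicate block, whose estimated correlation was -0.15. Leaving out each array in turn gave 0 to 35. All 15 probes stayed on the negative side under each of these alternatives. They were chosen on these same arrays and were negative on all 8, so their side here is not a separate result. Over the 6 arrays without 50 and 53, scaling and values as deposited both left 0 (953 and 54 unadjusted) of the 2 calls. The 6 differences from other strains became 0 as deposited (1214 unadjusted), 0 without arrays 50 and 53 (683), 0 with their signs turned (1156), 0 with that of array 49 turned (1757), and 0 to 16 without each array in turn, 2 of the 16 being on the positive side. The 678 probes with separate orientations became 235 as deposited (234 of them positive), 1381 with the sign of array 49 turned and 440 with the signs of arrays 50 and 53 turned. For these changes the cause was not tested, beyond the smaller number of arrays or probes where some were left out.

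Of 136 named genes, 92 stayed on their side with the signs of arrays 50 and 53 turned, 134 of 135 without these arrays, 128 with the sign of array 49 turned and 74 as deposited. The unmatched swap partners, the unknown direction and scale of the scores, and the spread between 8 arrays limit every result here.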
